A study of Mus musculus with 2 samples.

Results

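Activin is a secreted growth factor of the TGF-beta superfamily, made as a dimer of beta subunits. The 10 genes described here encode the subunits of activin, its main antagonist, its receptors and the Smad proteins that carry its signal. They are Inhba, Inhbb, Fst, Acvr2a, Acvr2b, Acvr1b, Smad2, Smad3, Smad4 and Smad7. All array probes carrying these names were taken, which gave 14 probes out of 39272 with a value, and 10 of 22753 named genes.

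The cells were epiblast stem cells (EpiSC) of the mouse, a pluripotent cell type of the postimplantation epiblast. EpiSC clone 2 and EpiSC clone 1 were each profiled on 1 array at passage 9. Both clones are labelled wildtype, female and C57BL/6 in genetic background, and no other treatment than collection with trypsin is recorded. Each line is 1 clone with 1 array, so a difference between them has no replicate check and carries no p-value.

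Activin binds a type II receptor, which recruits and phosphorylates a type I receptor. The type I receptor phosphorylates Smad2 and Smad3, which join Smad4 and act on target genes in the nucleus. EpiSC are known to depend on this route for self-renewal, in contrast to naive embryonic stem cells, and Nodal feeds into the same receptors. The sources used here do not say whether activin was in the culture medium, or whether feeder cells were used.

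Both clones had the markers of their labelled cell type. All 10 primed epiblast markers, among them Pou5f1, Fgf5 and Otx2, were well above background (the scanner software's flag, called detected below) on both arrays, as were 3 of 8 naive markers. Of 8 endoderm markers 1, Amn, was detected on both arrays, Gata6 in clone 2 alone and Sox17 on neither. Of 6 trophoblast markers 2, Eomes and Gcm1, were detected on both arrays, and Cdx2 on neither. Gcm1 had a scaled log2 signal of 2.58 in clone 2 and 3.04 in clone 1, but its 3 probes differed in direction. Of 6 macrophage and leukocyte markers 4 were detected on both arrays, Ptprc in clone 1 alone and Cd68 in clone 2 alone. The summed scaled signal of these 6 was 4.38 in clone 2 and 2.95 in clone 1. Their differences went both ways, from 2.45 log2 for Cd3e, a component of the T cell receptor complex, to -0.24 for the macrophage lysozyme Lyz2 among those detected on both arrays. Csf1r, the macrophage growth factor receptor, differed by 0.83 at its brightest probe but by under 0.1 at its 2 others. Of all probes, 57.5% in clone 2 and 57.4% in clone 1 were detected. Of all named genes, 61.3% were detected on both arrays.

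All 10 genes were well above background in both clones by at least 1 probe, where 61.3% of all named genes were. Of the 14 probes, 13 were well above background on both arrays, where 54.7% of all probes were. No gene differed between clones by 2-fold, a size that 2.56% of all measured genes reached. At 1.5-fold, which 9.08% of measured genes reached, the count was 1, the antagonist Fst. Of the 10 genes, 7 were higher in clone 2 by any amount, where 56.9% of measured genes were. The 7 became 6 under some other scalings. By probe, 8 of the 13 were higher in clone 2, where 53.4% of all measured probes were, and 0 reached 2-fold, where 2.78% did. The median difference of the genes was 0.18 log2 (clone 2 minus clone 1), beside 0.05 over all measured genes. Without spots that lay next to a spot at least 2-fold apart in the same direction, 9 genes had a value and their median was 0.04. Of these 9, 5 were higher in clone 2.

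All values below are processed signals of 1 spot per array, in intensity units, or scaled log2 signals, in which 0 stands for the 75th percentile of that array's probes. That percentile was 726 in clone 2 and 819 in clone 1. A processed signal that is slightly lower in clone 2 can therefore be a scaled signal that is higher there. Levels of different probes are not comparable, since probes bind with different strength, so only the clones are compared. The size of the spot noise comes from other probes, printed 10 times on the same arrays. Among those with a scaled log2 signal of -2 or more, the median SD between spots was 0.07 log2 in clone 2 (199 probes) and 0.06 in clone 1 (203 probes). For dimmer probes it was 0.13 in clone 2 (70 probes) and 0.11 in clone 1 (62 probes). Each difference is given with the SD these imply and with the scanner software's own error. Both describe spots on an array, not cultures.

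**Figure D1:**
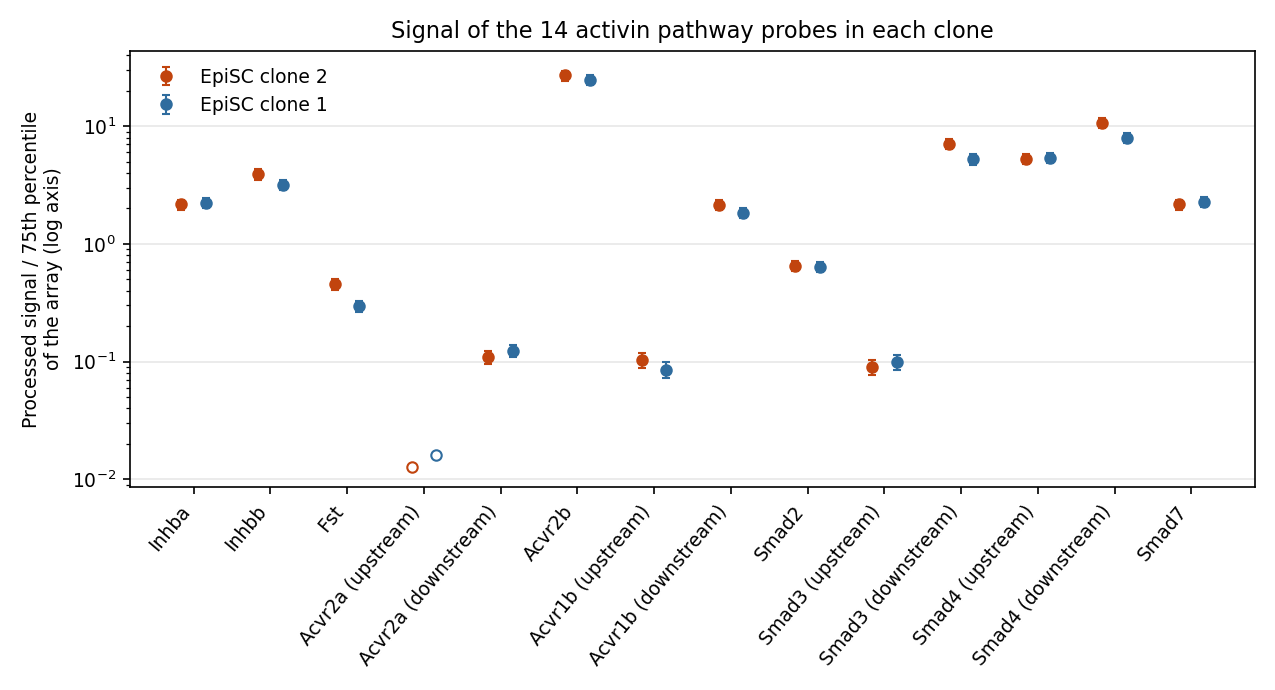
Signal of the 14 probes, divided by the 75th percentile of the array (vertical log axis), in EpiSC clone 2 (orange) and EpiSC clone 1 (blue), 1 array each. Bars are the scanner software's error of the spot, open circles (without bars) mark the upstream Acvr2a probe, which passed the background test on neither array, and upstream and downstream name the 2 probes of a gene along the transcript. At this scale the clones lie close together for every probe, and the gap is clearest for Fst.

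The letters of the probes give part of the transcript sequence that was read. The hexamer AATAAA, the common polyadenylation signal near the 3′ end of mRNAs, was searched on the sense strand as printed, and 6 of the 14 probes (42.9%) hold it. The share over all 39429 probes of the array, which are of the same length of 60 bases, was 12.6%. The 6 probes are those of Inhbb, Fst, Smad2 and Smad7, and the downstream probes of Smad3 and Smad4. A stretch of 30 bases around the hexamer (capitals) is shown for 3 of them as examples. The choice did not follow the size of the difference between clones, and the downstream probe of Smad4 is among those left out.
Fst: ggcaaaacgaaacacaacaaAATAAAtaat
Inhbb: gtcctcacctttagtttatttAATAAAtcc
Smad3, downstream probe: aaacgcccttctAATAAActtttcaccgta
The match describes these letters only, and the exon or UTR of a probe was not analysed here.

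The ligand genes were measured in both clones by 1 probe each. Inhba encodes the beta A subunit, which as a dimer forms activin A. Its probe lies at chr13:16118634-16118693 in mm9, on the plus strand. Inhba had a processed signal of 1572 in clone 2 and 1836 in clone 1, and a scaled signal of 1.11 in clone 2 and 1.16 in clone 1. The difference of -0.05 log2 was smaller than the SD between spots (0.09) and the software's error (0.20). Of all detected probes, 85.5% differed by at least as much, so the clones had close to the same Inhba signal.

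Inhbb encodes the beta B subunit, the building block of activin B. It is read at chr1:121312160-121312219 in mm9, on the minus strand. Its processed signal was 2839 in clone 2 and 2602 in clone 1, and its scaled signal was 1.97 in clone 2 and 1.67 in clone 1. The difference of 0.30 log2, or 1.23-fold higher in clone 2, was larger than the SD between spots (0.09) and the software's error (0.20). At least as large a difference was seen in 30.9% of detected probes. With normexp background correction, which starts from the unprocessed spot means, the Inhbb difference was 0.091. That is close to the median over all measured genes with this correction (0.098).

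Follistatin (Fst) binds activin outside the cell and keeps it from its receptors. Its probe is at chr13:115243565-115243624 in mm9, on the minus strand. The processed signal of Fst was 330.2 in clone 2 and 241 in clone 1, against a local background of 48 in clone 2 and 46 in clone 1. On the scaled log2 axis this was -1.14 in clone 2 and -1.76 in clone 1. Fst was thus 1.54-fold higher in clone 2, a difference of 0.62 log2 with an SD between spots of 0.09 and a software error of 0.21. It was the largest difference among the 13 measured probes, and the difference stayed between 0.55 and 0.68 under the 8 ways of processing compared for each probe. Several of these ways only moved the measured probes by a common amount, so they were not separate checks. A difference of this size in either direction was found in 8.42% of all detected probes. Among the 5275 detected probes of similar signal (mean scaled log2 from -2 to 0), 4.57% were higher in clone 2 by at least as much. The clone 1 signal of 241 lay below the highest negative control spot of that array (329), so Fst was not detected in clone 1 by that stricter rule. The rule was unequal between arrays, since the highest such spot was 85.1 in clone 2. The median of the 153 negative control spots was 7.13 in clone 2 and 7.96 in clone 1. In whole cultures, fewer cells that express a gene and less RNA per cell cannot be told apart.

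Activin subunits and follistatin are also made by fibroblasts, and fibroblast genes were present in both clones. Of 12 fibroblast markers, Col1a1 gave no value, and the other 11 were well above background on both arrays. Their summed scaled signal was 127 times the 75th percentile in clone 2 and 113 times in clone 1. The median difference of these markers was 0.15 log2, beside 0.05 over all measured genes. Their range was from -0.17 for Dcn, a matrix proteoglycan, to 0.46 for Pdgfrb, a growth factor receptor. Of the 11, 9 were higher in clone 2, where 56.9% of all measured genes were. The 10 primed epiblast markers also had a median of 0.15 log2, with 7 of them higher in clone 2. Over all detected probes, the median was 0.09 at a mean scaled log2 from 2 to 4 and 0.11 from 4 to 6. The part of fibroblasts in the signals of Inhba, Inhbb and Fst was not tested.

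The type II receptors bind the ligand. Acvr2a is read by 2 probes on chromosome 2, with starts 1105 bases apart. The downstream one, at chr2:48758429-48758488 in mm9 (plus strand), had a processed signal of 78.8 in clone 2 and 101 in clone 1. Scaled, this was -3.20 in clone 2 and -3.02 in clone 1. The difference of -0.19 log2 was close to the SD between spots of 0.17 and below the software's error of 0.25. Its direction turned with normexp correction, to 0.32. The upstream probe, at chr2:48757324-48757383, had 9.17 in clone 2 and 13.2 in clone 1 and failed the test for signal well above background in both, so it gives no fold.

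Acvr2b, the other type II receptor of activin and Nodal, had a processed signal of 19578 in clone 2 and 20172 in clone 1. Its probe is at chr9:119342560-119342619 in mm9, on the plus strand. The scaled signal was 4.75 in clone 2 and 4.62 in clone 1. The difference of 0.13 log2 exceeded the SD between spots (0.09) but not the software's error (0.20), and a neighbouring spot was at least 2-fold higher in clone 2. Its direction depended on the scaling, with -0.02 after quantile normalization, -0.01 in the authors' deposited table and -0.07 with normexp correction. Another probe, which the array names 4930516B21Rik and RefSeq lists under Acvr2b, differed by -0.23 log2. The receptor therefore showed no direction that held across probes and scalings.

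Acvr1b is the type I receptor that activin and Nodal share. Its probes lie on chromosome 15 on the plus strand, with starts 1106 bases apart. The downstream probe (chr15:101043956-101044015 in mm9) had a processed signal of 1562 in clone 2 and 1498 in clone 1, which after scaling was 1.18-fold higher in clone 2. The upstream probe (chr15:101042850-101042909) had 74.6 in clone 2 and 69.8 in clone 1, scaled to -3.28 in clone 2 and -3.55 in clone 1. The downstream probe differed by 0.23 log2 (SD between spots 0.09, software error 0.20), and the upstream one by 0.27 (SD 0.17, software error 0.31). Acvr1b was slightly higher in clone 2 by both probes and under all 8 ways of processing, several of which only moved the probes by a common amount. With normexp correction the downstream probe differed by 0.095 log2, close to the median over all measured genes (0.098). At least as large a difference was seen in 41.8% of detected probes for the downstream one and 35.6% for the upstream one.

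**Figure D2:**
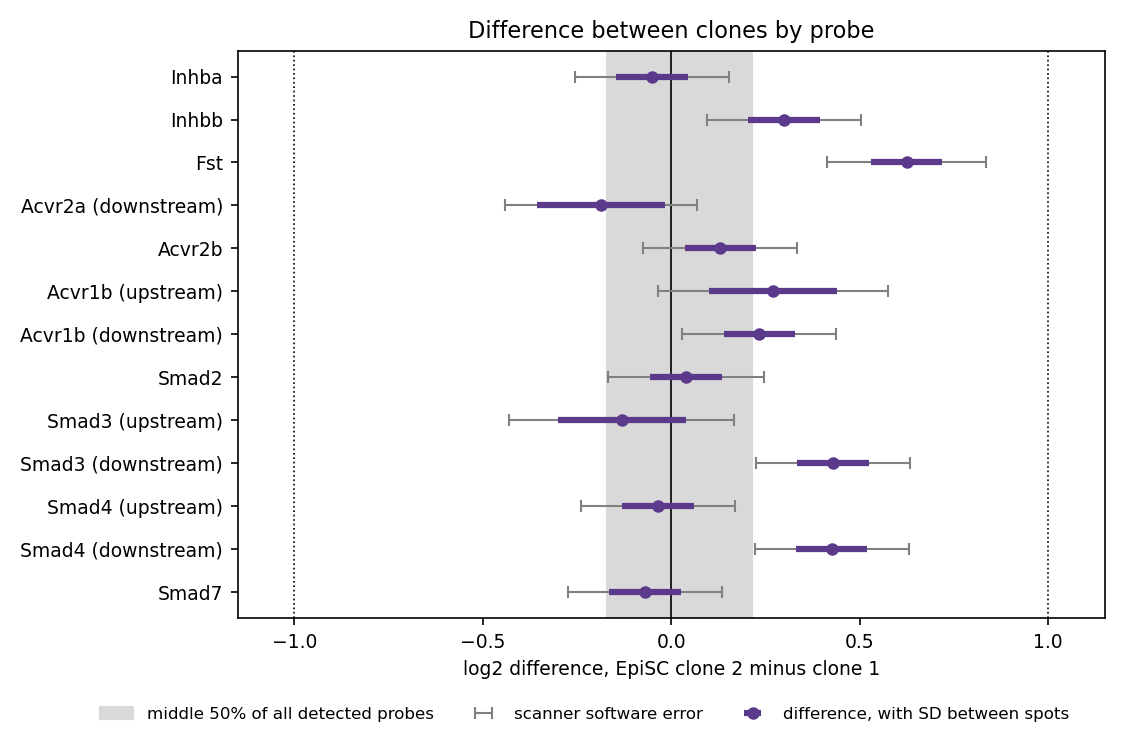
Difference between clones (log2, EpiSC clone 2 minus clone 1, horizontal) for the 13 probes measured on both arrays, 1 array per clone. Thick bars are the SD between spots, thin bars the scanner software's error, the grey band holds the middle 50% of all detected probes (-0.17 to 0.21), and dotted lines mark 2-fold. Fst and the downstream probes of Smad3 and Smad4 lie right of the band by more than their thick bars.

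Smad2 and Smad3 are the receptor-activated Smads of the activin branch. Smad2 is read by a probe at chr18:76464903-76464962 in mm9, on the plus strand. It had a processed signal of 475 in clone 2 and 522 in clone 1, scaled to -0.61 in clone 2 and -0.65 in clone 1. The difference of 0.04 log2 was below the SD between spots (0.09), and 88.7% of detected probes differed by at least as much.

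Smad3 is read by 2 probes on the minus strand of chromosome 9, with starts 2918 bases apart. The downstream probe (chr9:63494574-63494633 in mm9) had a processed signal of 5115 in clone 2 and 4283 in clone 1, scaled to 2.82 in clone 2 and 2.39 in clone 1. Its difference was 0.43 log2, or 1.35-fold higher in clone 2 (SD between spots 0.09, software error 0.20). The upstream probe (chr9:63497492-63497551) had 65.5 in clone 2 and 80.9 in clone 1, scaled to -3.47 in clone 2 and -3.34 in clone 1. Its difference was -0.13 log2 (SD between spots 0.17, software error 0.30), and 0.52 with normexp correction. The probes of Smad3 thus disagreed by 0.56 log2, more than the SD between spots of that gap (0.19) and the software's error (0.36). The spot of the downstream probe had a neighbour at least 2-fold higher in clone 2.

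Smad4 is the partner that Smad2 and Smad3 share with the BMP-activated Smads. Both of its probes lie on the minus strand of chromosome 18, with starts 998 bases apart. The downstream probe (chr18:73798670-73798729 in mm9) had a processed signal of 7728 in clone 2 and 6488 in clone 1, scaled to 3.41 in clone 2 and 2.99 in clone 1. It differed by 0.43 log2, or 1.34-fold (SD between spots 0.09, software error 0.20). The upstream probe (chr18:73799668-73799727) had 3812 in clone 2 and 4404 in clone 1, scaled to 2.39 in clone 2 and 2.43 in clone 1, a difference of -0.03 log2 (SD between spots 0.09). The gap of 0.46 log2 between them was again larger than the SD between spots (0.13) and the software's error (0.29).

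In the values reported, Smad3 and Smad4 shared this pattern of a downstream probe that was higher in clone 2 and an upstream probe that was not. With normexp correction Smad4 kept it (0.38 downstream, -0.20 upstream). Smad3 did not, with 0.32 downstream and 0.52 upstream. For Acvr1b the gap between probes was 0.04 log2. Among 2945 genes with 2 detected probes, the median gap was 0.21 log2, the upper quartile 0.37 and the 90th percentile 0.58, and 38.0% had probes of opposite sign. A gap of the size seen in Smad3 or Smad4 lies between that quartile and that percentile. The direction of neither gene between clones is therefore settled by these probes.

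Smad7 is an inhibitory Smad that blocks the type I receptor and is itself induced by TGF-beta family signals. Its probe, at chr18:75555371-75555430 in mm9 on the plus strand, had a processed signal of 1572 in clone 2 and 1860.4 in clone 1. The scaled signal was 1.11 in clone 2 and 1.18 in clone 1, and the difference of -0.07 log2 was below the SD between spots (0.09). At least as large a difference was seen in 80.3% of detected probes.

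Differences between the clones moved with signal over the whole array. Detected probes with a mean scaled log2 from -2 to 0 had a median difference of -0.04 log2 (5275 probes). From 2 to 4 the median was 0.09 (3040 probes, middle 50% from -0.06 to 0.25), and from 4 to 6 it was 0.11 (1387 probes, -0.01 to 0.26). The Acvr2b probe, at 0.13, lay within the middle 50% of its signal range. The downstream probes of Smad3 and Smad4, at 0.43 each, lay above it, and Fst lay above that of its own range (-0.23 to 0.16). Inhbb (0.30) and both probes of Acvr1b (0.23 and 0.27) also lay above the middle 50% of their ranges, which ended at 0.21. The other measured probes lay within theirs.

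**Figure D3:**
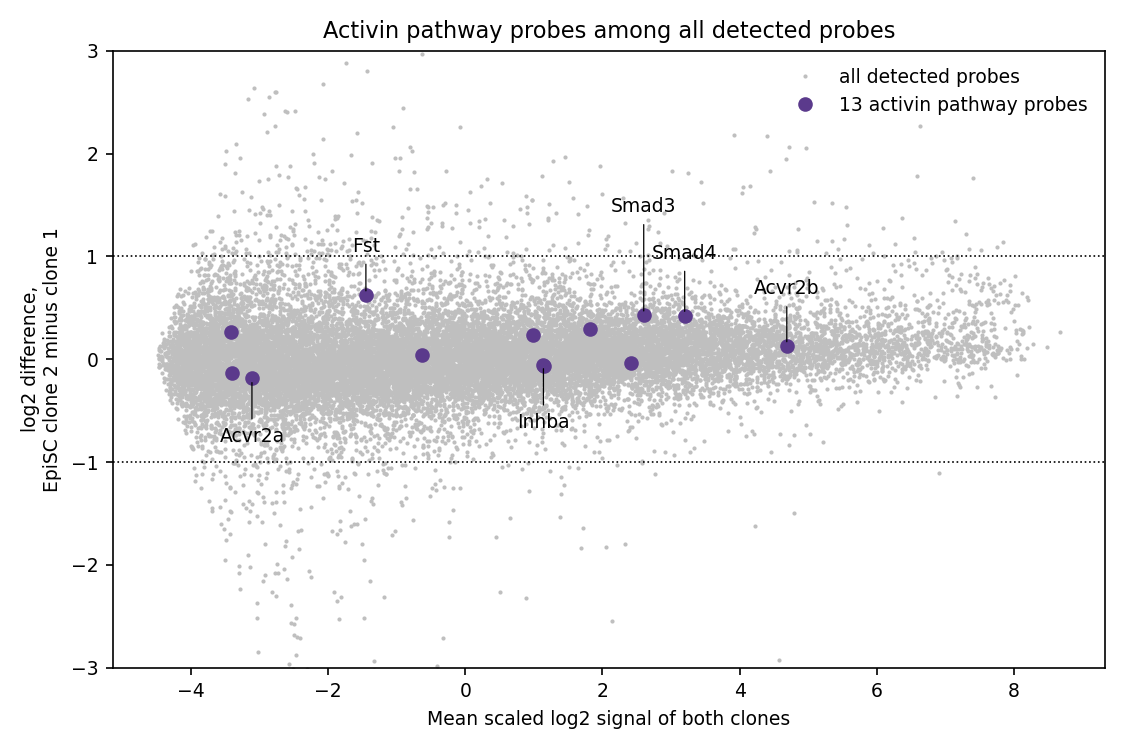
Difference between clones (log2, EpiSC clone 2 minus clone 1, vertical) against the mean scaled log2 signal of both (horizontal), for 21497 probes detected on both arrays (grey) and the 13 activin pathway probes among them (purple, some named at their brighter probe). Dotted lines mark 2-fold, and 34 grey points lie beyond the axis limits. All 13 lie between the dotted lines, and Fst is the highest of them.

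The rest of the TGF-beta superfamily gives the setting for these genes. Besides the 10, 59 genes from 7 lists of receptors, ligands, antagonists, Smads, Smad regulators and targets gave a value. Of these, 47 were well above background on both arrays, where 61.3% of all named genes were. The same share stands beside the detection counts of the single lists below. None of the 47 was 2-fold apart, where 2.56% of all measured genes were. Of the 47, 28 were higher in clone 2 and 19 in clone 1, where 56.9% of all measured genes were higher in clone 2. Their median difference was 0.06 log2. At 1.5-fold, which 9.08% of all measured genes reached, 4 of them differed, namely Inhbe, Tdgf1, Tgfbr1 and Zfhx3.

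Among type I receptors, 6 of 7 were detected on both arrays, with a median difference of 0.14 log2. Tgfbr1, the TGF-beta receptor of this class, had the widest difference, with -0.34 in clone 2 and 0.38 in clone 1. That difference of -0.73 log2 had the same sign as its other probe (-0.46). Acvr1c, which also serves Nodal, was undetected in both clones. Of 5 type II receptors, 4 were detected on both arrays, with a median of -0.13. Besides Acvr2a, the widest was Bmpr2, the BMP receptor, at -0.19. Amhr2, the receptor of anti-Müllerian hormone, passed detection in clone 2 alone, with -4.12 in clone 2 and -4.42 in clone 1. Both lie near the lowest signal of detected probes (-4.55 in clone 2 and -4.54 in clone 1). Its lower bound of 1.23-fold over clone 1 was set by its own clone 1 signal, so it equals the plain ratio.

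Of 12 other ligands, 9 were detected on both arrays, with a median difference of 0.14 log2. Inha, the alpha subunit that turns an activin beta subunit into inhibin, had -2.26 in clone 2 and -1.81 in clone 1, a difference of -0.45. Inhbe, the beta E subunit, had -3.47 in clone 2 and -4.16 in clone 1, a difference of 0.69. The beta C subunit gene Inhbc also passed detection in clone 2 alone, with -3.48 in clone 2 and -4.35 in clone 1. Its lower bound of 1.84-fold was likewise the plain ratio. Both Inhbe and Inhbc were dim, near the lowest signal of detected probes (-4.55 in clone 2 and -4.54 in clone 1). Gdf11 and Mstn were not well above background. Nodal, which signals through the same receptors, had 3.04 in clone 2 and 2.75 in clone 1.

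Of 10 extracellular antagonists and co-receptors, 8 were detected on both arrays, with a median of 0.10 log2. Fst and Tdgf1, the Nodal co-receptor Cripto, differed most. Tdgf1 had 2.94 in clone 2 and 2.28 in clone 1, a difference of 0.66, but its 2 other probes differed in the opposite direction. The follistatin relative Fstl3, which also binds activin, had -1.13 in clone 2 and -1.08 in clone 1. Cer1 and Bambi were not well above background. Of 8 Smads, 7 were detected on both arrays (median 0.04), and Smad9 was not.

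All 17 measured Smad partners, anchors and regulators were detected on both arrays, with a median of 0.05 log2. Zfhx3, a homeodomain zinc finger protein, had -1.28 in clone 2 and -0.63 in clone 1, a difference of -0.64. Pmepa1, a TGF-beta target that sequesters receptor-activated Smads, had 1.17 in clone 2 and 0.74 in clone 1, and its probes differed by 0.43 and 0.34. Foxh1, the DNA-binding partner of Smad2 in Nodal responses, had 0.99 in both.

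Of 15 activin and Nodal target genes, 10 were detected on both arrays, with a median of 0.10 log2. Pmepa1 and Fgf8, a growth factor of the primitive streak, differed most, Fgf8 with 0.13 in clone 2 and -0.23 in clone 1. The other probes of Fgf8 differed by -0.08 and 0.22, so its probes did not share a direction. The mesendoderm genes T, Mixl1, Gsc and Foxa2 were among the 5 that were undetected in both clones. The lists overlap, and Smad7, Nodal, the Lefty genes, Skil, Pmepa1 and Cer1 stand in 2 of them.

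**Figure D4:**
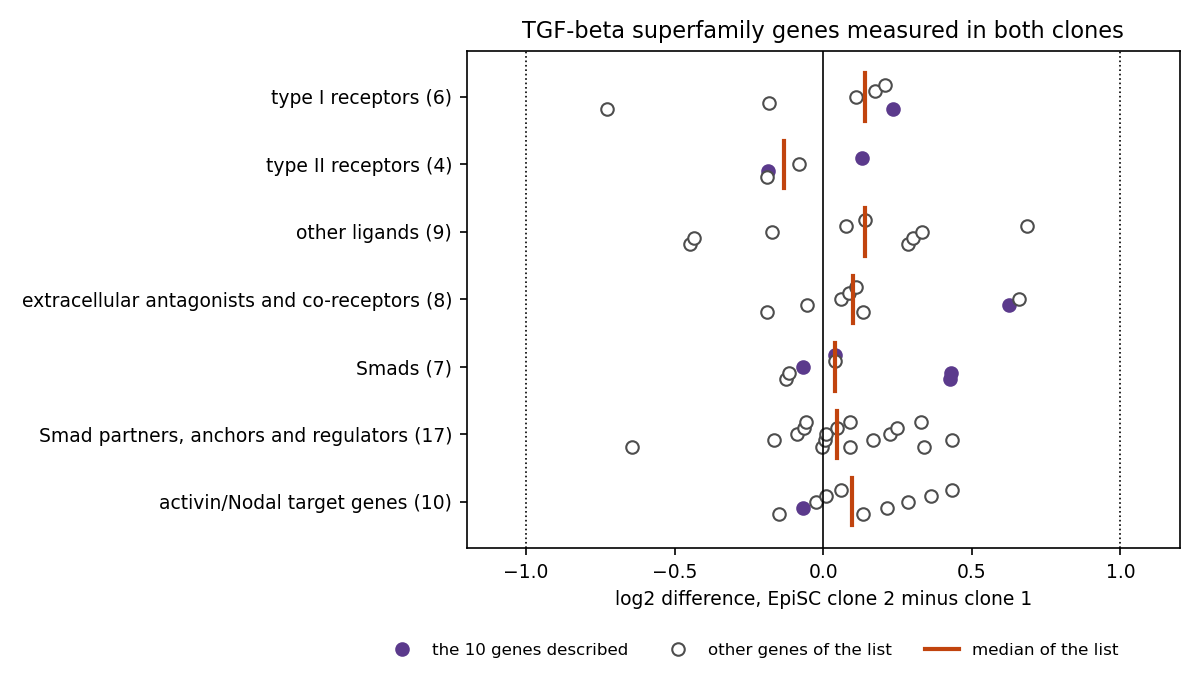
Difference between clones (log2, EpiSC clone 2 minus clone 1, horizontal) for the genes of 7 lists that were measured in both clones (number in parentheses), each by its brightest probe. Filled circles are genes among the 10 described, open circles other genes, the orange line is the median of the list, and dotted lines mark 2-fold. No gene reaches 2-fold, and the medians lie between -0.13 and 0.14.

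Under the 8 ways of processing, 9 of the 13 measured probes kept the sign of their difference. The probes of Acvr2b and Smad2, the dim probe of Smad3 and the measured one of Acvr2a did not. These ways are not 8 separate checks. Median scaling, the percentile over detected probes and keeping outlier spots each moved all 13 probes by a common amount. Leaving out spots with a 2-fold neighbour did the same for the probes that remained. Quantile normalization and the deposited table gave close values.

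**Figure D5:**
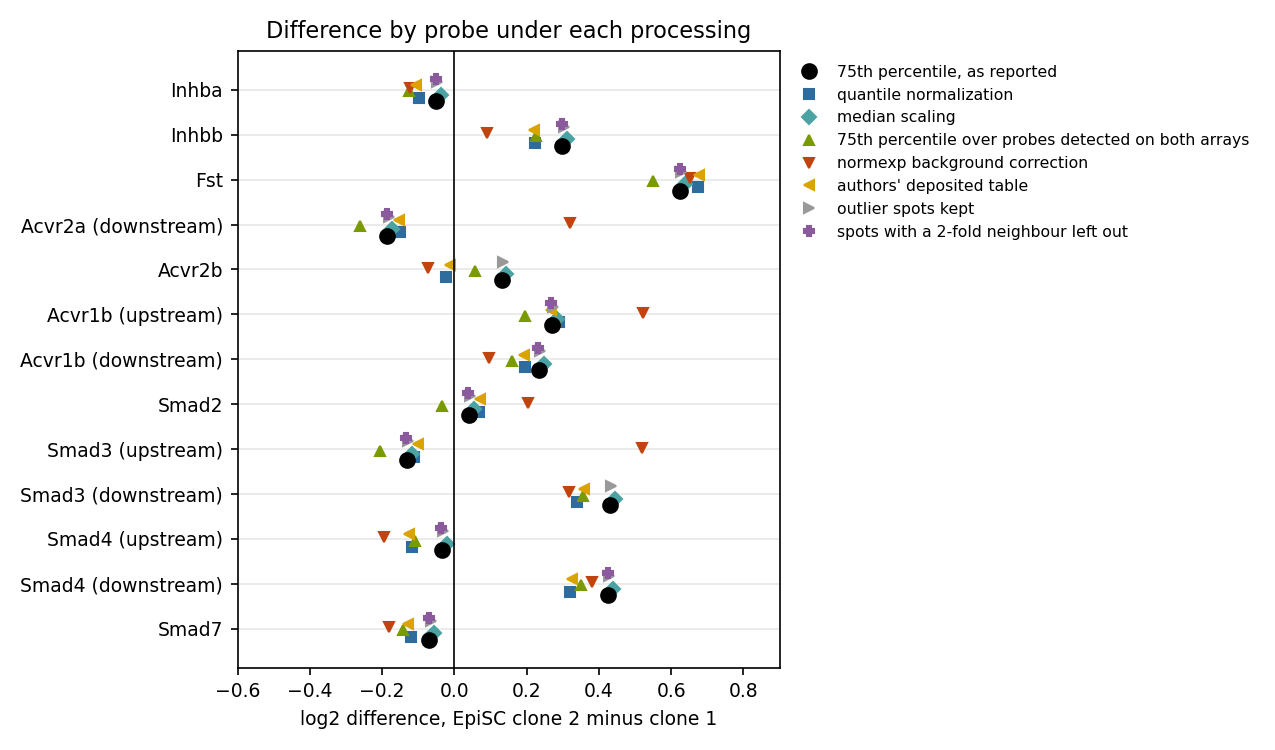
Difference between clones (log2, EpiSC clone 2 minus clone 1, horizontal) for each of the 13 probes measured on both arrays, under 8 ways of processing (symbols), with black circles for the values reported. Probes of Acvr2b and Smad3 whose spot had a 2-fold neighbour have no purple symbol. Fst stays between 0.55 and 0.68, and normexp correction moves the dim probes of Acvr2a, Acvr1b and Smad3 most.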

How the data were processed

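RNA of each clone was labelled with Cy3 from 0.2 ug and hybridised to a 1-colour Agilent mouse array (design 026655), per the labels' protocols and the file headers. The deposited intensity of each spot had been background-subtracted and detrended with Feature Extraction 11.0.1.1, per the file headers. Flags for detection, saturation and outliers, used as other values, are the software's, per the file headers. A second table, of normalized intensities deposited by the authors, served as an alternative (its method is unstated in the sources used here). Against the processed signals its log2 values correlated at 1.00 (clone 2) and 0.999 (clone 1) over 39220 probes, with column medians of 65.8 in both, on a linear scale.

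Outlier spots were left out (246 in clone 2 and 277 in clone 1), log2 signals were averaged per probe and the 75th percentile of each array was subtracted. Detection of a probe required the well-above-background flag on 50% or more of its spots. A gene has the value of its brightest probe. For a gene detected on 1 array, a lower bound was set against the higher of the gene's own signal and the lowest detected signal on the other array. Names came from the files and from RefSeq (GRCm38.p6, names only), where 9200 of 39272 probes matched no gene. All 14 member probes matched, 13 by accession.

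With 1 array per clone no test was run. The members and lists were chosen with earlier results of these data known. All members are named, and of each pathway list the genes detected on 1 array only and the 2 with the largest difference, and further genes as examples chosen after their values were seen. With 2 arrays, likeness of pattern between genes was not computed. The number of arrays limits the precision. The calculation was tested on simulated data. Python 3.11.15 and limma 3.58.1 (R 4.3.3) were used.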

Additional observations from a re-analysis of the deposited data

How the results depend on the processing

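The count of members that were 2-fold apart stayed at 0 under quantile normalization, median scaling, the percentile over detected probes, normexp correction, the authors' deposited table, outlier spots kept, the mean of all probes, both other detection rules and without spots that had a 2-fold neighbour. With a threshold of 1.5-fold it was 1 (Fst), and the count of pathway genes was 5, in place of 0. With the positive and significant flag it was 1 pathway gene, T, which is not well above background on either array. The median difference of the members, 0.18 log2, ranged from 0.11 to 0.20 under the scalings and background correction, and was 0.0383 with spots beside a 2-fold difference removed. There Acvr2b has no probe and Smad3 keeps only its dim one. Under these the median of all genes ranged from -0.03 to 0.10. The count of members higher in clone 2, 7 of 10, was 6 with quantile normalization, the deposited table and the percentile over detected probes. It was 5 of 9 without spots that had a 2-fold neighbour. Against the highest negative control spot, 85.1 in clone 2 and 329 in clone 1, 8 of the 10 members were detected on both arrays, without Fst and Acvr2a. The share of all genes under this rule is not given here, so that count has no comparison. By probe, the direction turned for Acvr2b (quantile, normexp and deposited values), for the dim probes of Acvr2a and Smad3 (normexp) and for Smad2 (-0.03, percentile over detected probes). The cause was not tested. No replicate could be left out, since each clone has 1 array. No paired analysis was possible because each clone has only 1 sample.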
